A study of Homo sapiens with 4 samples.

Results

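Chromatin immunoprecipitation sequencing (ChIP-seq) of MCF10A, an immortal and non-malignant breast epithelial cell line kept in its usual medium without treatment, was examined at 9 genes of epithelial cell adhesion. They were the desmosomal cadherins DSC3 and DSG3, the desmosomal plaque genes DSP, PKP1 and JUP, the desmosome-associated gene PERP, the classical cadherins CDH3 and CDH1, and SERPINB5, which encodes maspin. Every enriched region that overlapped the hg19 span of one of these genes, widened by 5 kb on each side, was taken. The 9 windows held 10 of the 11604 regions of the 53BP1 list, 71 of the 62530 regions of the Pol II S5p list and 49 of the 54600 regions of the Pol II S2p list. 53BP1 binds damaged chromatin and the tumour suppressor p53. S5p and S2p are forms of RNA polymerase II (Pol II) that carry phosphate on serine 5 or serine 2 in the repeats of the enzyme's tail; S5p is most abundant near gene starts and S2p on elongating polymerase. The series also has an input, which was not analysed here. Each ChIP had 1 library of unknown read depth, so no value below has a replicate error, and a list without a region over a gene shows that none was detected there. In such bulk chromatin, signal in fewer cells and a weaker signal in each cell cannot be told apart.

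Desmosomes are patches of strong adhesion between epithelial cells. Desmocollins and desmogleins, such as DSC3 and DSG3, are their transmembrane cadherins; plakoglobin (JUP) and plakophilin 1 (PKP1) bind the cadherins' tails, and desmoplakin (DSP) ties the plaque to keratin filaments. Classical cadherins make the adherens junctions beside them, with CDH1 encoding E-cadherin and CDH3 encoding P-cadherin, the form typical of basal epithelial cells; plakoglobin takes part in both kinds of junction. PERP is a membrane protein that desmosomes need in stratified epithelia and is a known target of p53 and p63. Maspin belongs to the serpin family of protease inhibitors and is made by myoepithelial cells of the breast; its gene is a known p53 target. The study's title links 53BP1 to transcription by the p53 family, and the lists bear on where 53BP1 and both forms of Pol II lay along these genes.

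The starts of 8 of the 9 genes, PKP1 being the other, lay inside an S5p region and inside an S2p region, and 7 of them inside a 53BP1 region. No share over all gene starts stands beside these counts, since no hg19 annotation was at hand. Whether the counts are particular to these genes was not tested. In CDH3 the 53BP1 region began 725 bp after the start of the span, which may not be the start in use. PKP1 had regions in its interior and none over its start. Promoters of 5 of the genes are shown because they frame this result. Among the 9 windows, PERP had the S5p region of largest fold and JUP the 53BP1 region of largest fold. SERPINB5 had the S2p region of largest fold. DSG3 had all 3 kinds of region over a start low in GC content, and PKP1 had none over its start. Each runs from 250 bases before to 50 after the gene start of RefSeq in GRCh38.p14, on the strand given, 5′ to 3′. Capitals mark CCGCCC (a GC box), TGANTCA (an AP-1 site) and CAGGTG (an E-box), each on either strand. Neighbouring GC boxes overlap each other in PERP and SERPINB5. For JUP the first of 2 entries is shown. The second, at 41785927 to 41786226, held 2 E-boxes and no GC box. The starts of the hg19 spans were not aligned with these, so an offset between them is possible.
PERP, chr6:138107370-138107669, minus strand: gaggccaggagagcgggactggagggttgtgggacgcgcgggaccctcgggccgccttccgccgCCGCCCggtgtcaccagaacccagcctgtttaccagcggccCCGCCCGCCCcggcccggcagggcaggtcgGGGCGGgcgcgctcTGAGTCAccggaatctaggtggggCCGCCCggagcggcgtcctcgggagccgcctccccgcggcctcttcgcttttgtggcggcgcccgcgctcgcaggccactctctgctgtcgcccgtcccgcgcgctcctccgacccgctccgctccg
JUP, chr17:41786662-41786961, minus strand: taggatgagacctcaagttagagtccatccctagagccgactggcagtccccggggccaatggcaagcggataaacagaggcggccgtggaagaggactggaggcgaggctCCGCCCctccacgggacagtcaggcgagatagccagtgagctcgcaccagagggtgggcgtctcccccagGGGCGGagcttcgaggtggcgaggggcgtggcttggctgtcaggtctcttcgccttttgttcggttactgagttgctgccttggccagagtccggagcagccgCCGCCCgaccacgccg
SERPINB5, chr18:63476708-63477007, plus strand: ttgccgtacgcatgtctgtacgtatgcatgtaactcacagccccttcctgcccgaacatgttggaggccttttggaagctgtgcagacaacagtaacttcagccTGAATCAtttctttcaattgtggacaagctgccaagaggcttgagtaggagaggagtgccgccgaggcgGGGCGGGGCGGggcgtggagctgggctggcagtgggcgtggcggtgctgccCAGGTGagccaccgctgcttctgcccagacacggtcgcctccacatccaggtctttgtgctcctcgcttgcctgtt
DSG3, chr18:31447491-31447790, plus strand: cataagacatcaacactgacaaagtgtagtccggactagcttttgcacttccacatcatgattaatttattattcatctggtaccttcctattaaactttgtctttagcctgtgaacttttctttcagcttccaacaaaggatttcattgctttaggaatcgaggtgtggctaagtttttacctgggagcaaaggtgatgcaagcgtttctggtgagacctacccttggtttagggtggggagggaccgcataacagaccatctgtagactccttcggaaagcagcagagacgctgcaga
PKP1, chr1:201283256-201283555, plus strand: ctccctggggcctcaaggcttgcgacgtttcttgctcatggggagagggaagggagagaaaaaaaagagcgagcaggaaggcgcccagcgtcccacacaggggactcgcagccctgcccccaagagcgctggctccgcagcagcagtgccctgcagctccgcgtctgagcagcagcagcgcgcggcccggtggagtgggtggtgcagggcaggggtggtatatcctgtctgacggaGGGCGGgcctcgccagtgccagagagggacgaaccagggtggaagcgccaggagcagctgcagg

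The RefSeq promoter table matched 7 of the 9 genes, with 2 entries for JUP and none used here for CDH3 and CDH1. GC content was 77.0% in DSP and in PERP, at the 93.9th percentile of the 35116 promoters of the table, and 44.0% in DSG3, at the 19.1st percentile; the median over the table was 58.7%. CpG pairs numbered 43 in PERP, 37 in DSP, 25 in DSC3, 23 and 19 in the JUP entries, 19 in PKP1, 16 in SERPINB5 and 6 in DSG3, against a median of 14 over the table. A GC box was present in 5 of the 8 member entries, against 45.0% of all promoters. AP-1 letters were present in the PERP and SERPINB5 entries and in 7.71% of all promoters, and an E-box in DSP, SERPINB5 and the second JUP entry and in 20.6% of all. None of the 8 entries held TATAAA on either strand, which 11.5% of all promoters held. The core of a p53-family site, searched as 2 copies of CNNG with any 6 letters between them, was found in 7 of the 8 entries, all but DSG3, but also in 74.0% of all promoters, and some matches overlapped each other or a GC box, so it was not marked. A match is a run of letters and not a measured binding site.

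**Figure D1:**
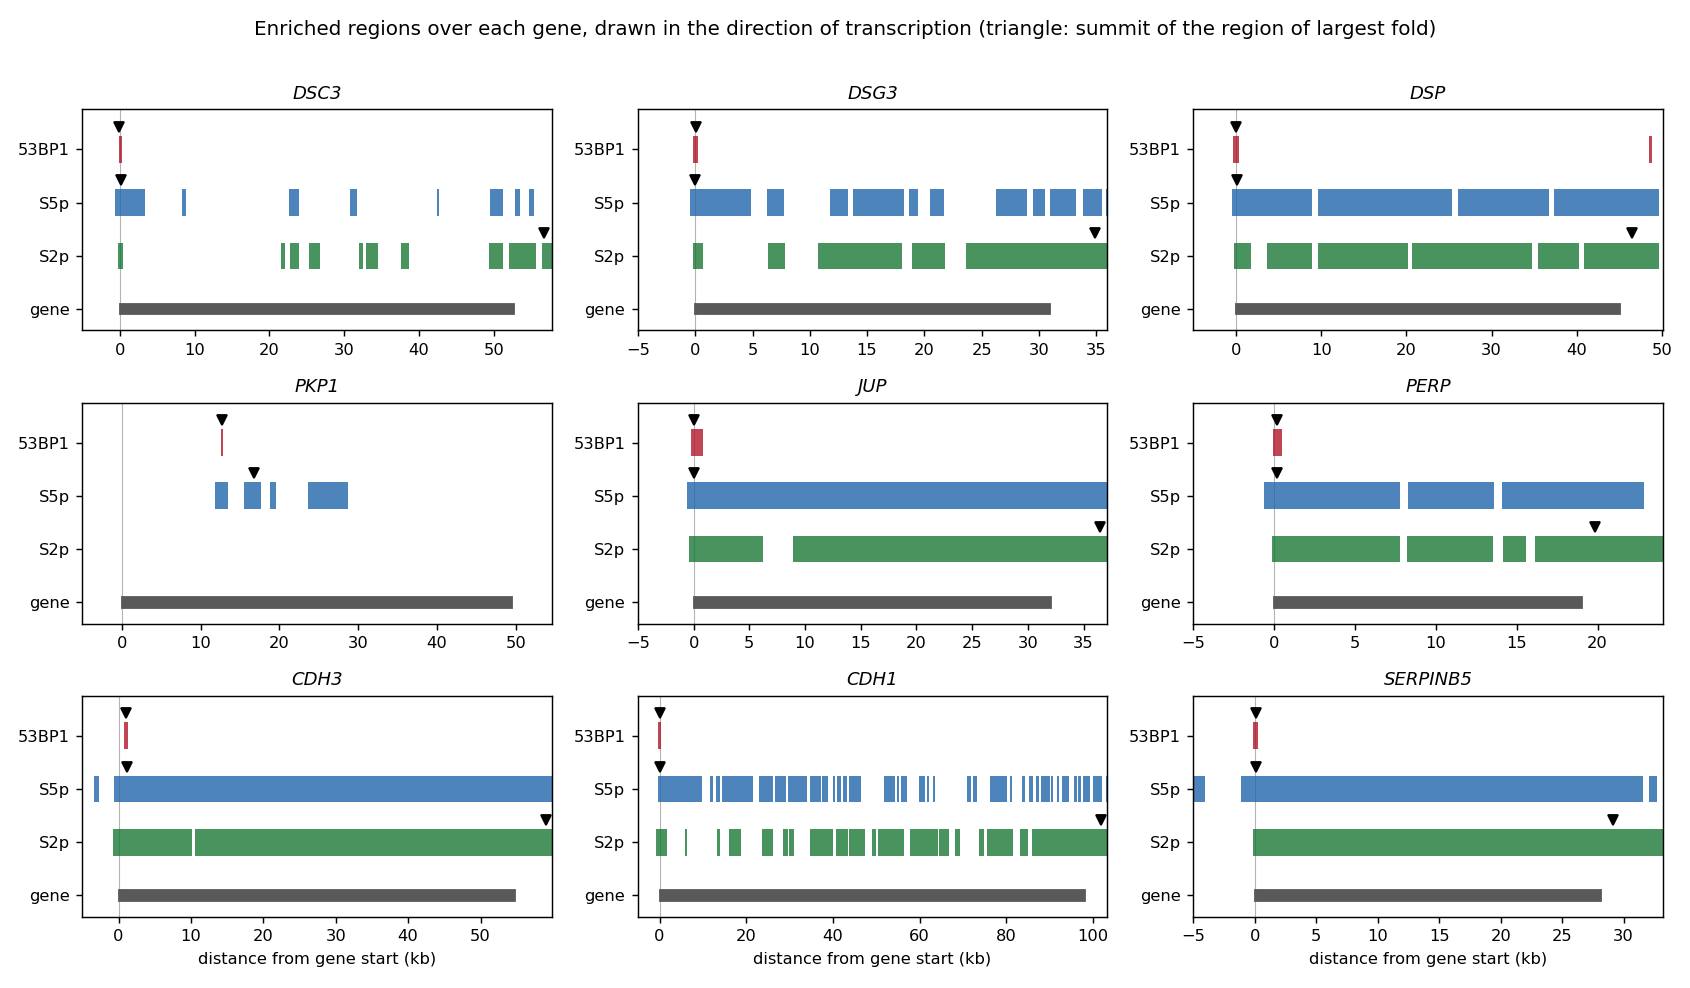
Regions of the 53BP1 (red), S5p (blue) and S2p (green) lists over each gene (grey bar), with distance from the gene start in kb on the horizontal axis and the direction of transcription from left to right; windows end 5 kb outside the gene. Black triangles mark the summit of the region of largest fold: 53BP1 and S5p summits stand within 200 bp of the start in 7 genes and 1006 and 1109 bp after it in CDH3, S2p summits stand past the end of the same 8 genes, and PKP1 has interior regions without S2p.

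Among the desmosomal cadherins, DSC3 (chromosome 18, 28570052 to 28622781, minus strand) carried a 53BP1 region at 28622510 to 28622893. Its fold, the authors' signal value read here as enrichment over background, was 4.65, at the 27.3rd percentile of the 53BP1 list. The region's summit lay 62 bp before the gene start. Its −log10 q-value was 4.55, so a limit of 5 would leave it out. The S5p region over the start, at 28619413 to 28623425, had a fold of 39.7 (95.2nd percentile). The remaining 7 S5p regions of DSC3 had folds of 2.30 to 4.41, so the gene body was far weaker in S5p than the start. S5p covered 15.9% and S2p 17.7% of the span, the smallest shares among the 8 genes with a start in S5p. The S2p region of largest fold, 8.66 (88.9th percentile), lay at 28563972 to 28566385, with its summit 4.02 kb past the gene end, while the S2p region over the start had a fold of 3.89.

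DSG3 (chromosome 18, 29027732 to 29058665, plus strand), the other desmosomal cadherin, had a 53BP1 region at 29027515 to 29027946 with a fold of 6.49 (57.2nd percentile) and a summit 62 bp after the start. The S5p region over the start, at 29027308 to 29032631, had a fold of 29.0 (92.1st percentile), the lowest of the 8 S5p regions over a start. Its 10 other S5p regions had folds of 2.95 to 6.09. More of the DSG3 body was enriched than of the DSC3 body: S5p covered 59.0% and S2p 63.7% of the span. The largest S2p fold, 7.88 (87.3rd percentile), belonged to a region of 19.3 kb at 29051341 to 29070667, which crossed the gene end and reached 12.002 kb past it.

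In the plaque, DSP (chromosome 6, 7541870 to 7586946, plus strand) had a 53BP1 region at 7541528 to 7542248 with a fold of 8.14 (73.8th percentile), a summit 19 bp after the start, and under it an S5p region at 7541365 to 7550764 with a fold of 65.6 (98.7th percentile). S5p regions covered 95.7% of the span and S2p regions 90.6%. DSP alone had a second 53BP1 region in its window, at 7590325 to 7590693, with a fold of 5.67. Its summit lay outside the gene, 3.53 kb past the end and 16 bp from the summit of an S5p region of fold 36.4. SNRNP48, a gene of the minor spliceosome, is the next protein-coding gene on that side in the GRCh38 table, so signal of DSP and of its neighbour cannot be told apart here. The largest S2p fold of DSP, 40.97 (98.9th percentile), lay in the region at 7582735 to 7591580, whose summit was 1.46 kb past the gene end and which reached the second 53BP1 region.

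JUP (chromosome 17, 39910859 to 39942964, minus strand) held the strongest and widest 53BP1 region of the 9 genes, 1023 bp at 39942157 to 39943179, with a fold of 12.8 (93.98th percentile) and a summit 49 bp after the start. A single S5p region of 41.7 kb, at 39901886 to 39943571, covered the whole gene with a fold of 77.2 (99.2nd percentile) and its summit 50 bp after the start. S2p lay in 2 regions. The one over the start had a fold of 8.49, and the other, 36.8 kb at 39897232 to 39934070, had a fold of 29.1 (98.1st percentile) and reached 13.6 kb past the gene end.

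PKP1 (chromosome 1, 201252580 to 201302121, plus strand) was laid out unlike the other 8 genes in all 3 lists. No region of any list lay within 1 kb of its start, and the nearest began inside the gene. Its 4 S5p regions lay between 11838 and 28729 bp after the start; the strongest, at 201268059 to 201270248, had a fold of 8.61 (80.2nd percentile), and together they covered 19.5% of the span. The single 53BP1 region, at 201265188 to 201265485, was the weakest and narrowest of the 10, with a fold of 3.48 (5.99th percentile) and a width of 298 bp. Its −log10 q-value of 3.48 was also below 5. The region lay on an S5p region of fold 7.88, at 201264418 to 201266036, with the summits 101 bp apart. No S2p region was detected in the PKP1 window.

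PERP (chromosome 6, 138409642 to 138428660, minus strand) had the strongest S5p region of the 9 genes, at 138420889 to 138429307, with a fold of 87.2 (99.4th percentile). The 53BP1 region there, at 138428155 to 138428748, had a fold of only 7.18 (64.9th percentile), with its summit 140 bp after the start and 6 bp from the S5p summit. S5p covered 94.9% and S2p 91.7% of the span. The largest S2p fold, 13.8 (94.1st percentile), was at 138404507 to 138412537, with its summit 837 bp past the gene end.

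The classical cadherin genes lie next to each other and are read in the same direction. In CDH3 (chromosome 16, 68678151 to 68732957, plus strand) the 53BP1 region at 68678876 to 68679447 had a fold of 5.95 (48.6th percentile). Its summit was 1006 bp after the start of the span, and the S5p summit was 1109 bp after it, and they were 103 bp apart. Whether the span's first base is the start in use in these cells was not tested, so the distance from the start to both summits in CDH3 holds for this span only. The S5p region was 64.7 kb wide, at 68677531 to 68742181, with a fold of 44.8 (96.3rd percentile), and it covered the whole gene. S2p covered 99.2% of the span. Its strongest region, 65.5 kb at 68688734 to 68754184 with a fold of 19.7 (96.4th percentile), reached 21.2 kb past the gene end, the longest reach among the 8 genes.

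CDH1 (chromosome 16, 68771195 to 68869444, plus strand), the longest of the 9 genes at 98.3 kb, had the second strongest 53BP1 region, at 68770897 to 68771460, with a fold of 10.4 (87.1st percentile) and a summit 43 bp after the start. The S5p region over the start, 10.3 kb at 68770781 to 68781046, had a fold of 57.4 (98.04th percentile). The window held 34 further S5p regions, 32 in the gene and 2 past its end, with a median fold of 3.23 and a highest fold of 8.83. CDH1 thus supplied 35 of the 71 S5p and 19 of the 49 S2p regions of the 9 windows, and any share of regions weighs it most. S5p covered 60.5% and S2p 60.3% of the span, and the largest S2p fold, 10.2 (91.2nd percentile), was in a region of 21.5 kb at 68857190 to 68878693 that reached 9.25 kb past the gene end. TANGO6 is the next protein-coding gene on that side in the GRCh38 table, so signal of CDH1 and of its neighbour cannot be told apart there.

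SERPINB5 (chromosome 18, 61144144 to 61172318, plus strand) was the only one of the 9 genes with a single S2p region in its window, 33.5 kb at 61143969 to 61177483, and this held the largest S2p fold of the 9, 57.0 (99.5th percentile). The region covered the whole gene, but its summit lay 989 bp past the gene end. An S5p region of 32.8 kb, at 61142982 to 61175759, also covered the whole gene, with a fold of 54.9 (97.8th percentile) and its summit 96 bp after the start. The 53BP1 region at 61143967 to 61144437 had a fold of 8.06 (73.4th percentile) and a summit 89 bp after the start. A further S5p region of fold 11.2, with its summit at -4.44 kb from the start, overlapped neither 53BP1 nor S2p.

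Placed in order of the strongest region of each gene, the 3 lists did not give the same sequence of genes. S5p ran PERP, JUP, DSP, CDH1, SERPINB5, CDH3, DSC3, DSG3 and PKP1. 53BP1 ran JUP, CDH1, DSP, SERPINB5, PERP, DSG3, CDH3, DSC3 and PKP1. S2p ran SERPINB5, DSP, JUP, CDH3, PERP, CDH1, DSC3 and DSG3, with none for PKP1. PKP1 was last by S5p and 53BP1 and absent from S2p, and DSC3 and DSG3 were low in S5p and S2p, while PERP was first by S5p and in the middle by 53BP1. The 53BP1 order depended on region width: ranked among regions of like width, SERPINB5 (92.9th percentile) and CDH1 (90.4th) stood above JUP (81.9th), and PKP1 was at the 18.2nd. With 1 library per ChIP there is no spread by which to separate neighbours in these orders.

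**Figure D2:**
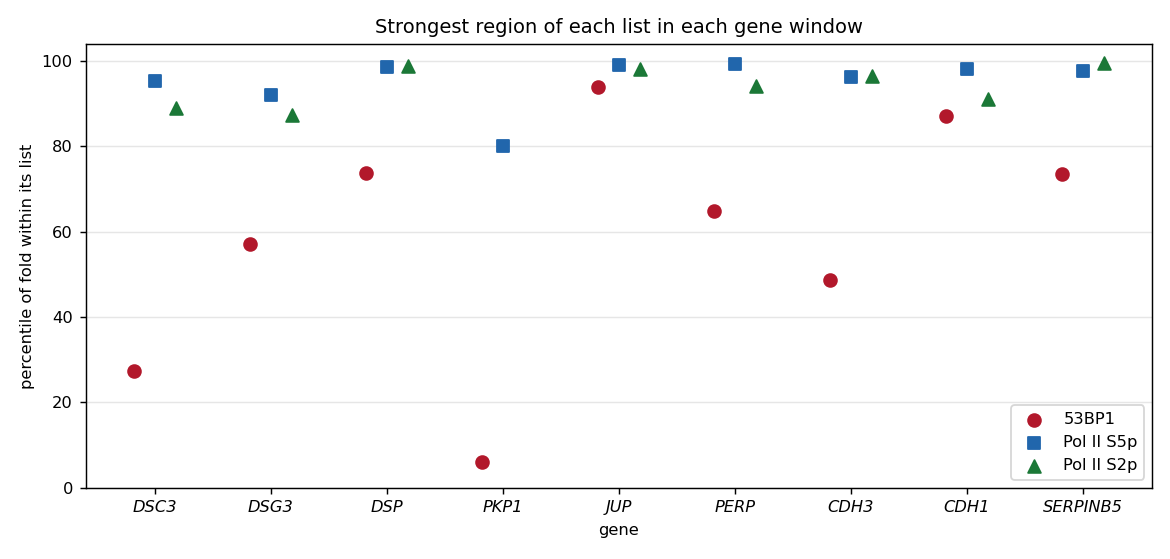
Percentile of the fold of the strongest region of each gene window within its own list (vertical axis) for 53BP1 (red circles), S5p (blue squares) and S2p (green triangles). S5p runs from 80.2 to 99.4 and S2p from 87.3 to 99.5, while 53BP1 runs from 5.99 in PKP1 to 93.98 in JUP; percentiles of lists of different lengths rank regions within a list only.

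53BP1 lay on the S5p region of largest fold in 8 of the 9 genes, and in PKP1 on one of fold 7.88, against a largest fold of 8.61. By −log10 q-value this order was reversed in PKP1. The region with 53BP1 was then at the 84.8th percentile and the other at the 84.2nd. All 10 of the 53BP1 regions overlapped S5p by at least 1 bp, against 97.6% of the whole list, and 9 of 10, all but that of PKP1, overlapped S2p (exact 95% interval 55.5 to 99.7%), against 78.9% of the list. Of the 71 S5p regions, 10 overlapped 53BP1 (14.1%, interval 6.97 to 24.4%), against 15.2% of the list; without CDH1 and its many weak regions the share was 9 of 36 (25%). The weakest S5p region over a start had a fold of 29.0. At or above that fold, 9 of 9 S5p regions in the windows held 53BP1, against 97.4% of the 4945 such regions of the list, so this count is near the background. The 9 include the DSP region of fold 36.4 with its summit past the gene end, where signal of a neighbouring gene cannot be told apart. Between that fold and a fold of 8.49, the lower edge of the strongest of 5 equal parts of the S5p list, 0 of 4 held 53BP1, against 54.5% of the list; these were 1 region each of PKP1, PERP, CDH1 and SERPINB5. Their folds, 8.61 to 11.2, lay near the lower edge of that range, and among list regions with folds in those narrower bounds 21.3% held 53BP1. Below that edge, 1 of 58 held it, that of PKP1, against 1.15%. Intervals cover counting error only and take regions as independent, which regions of 1 gene are not.

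The folds of 53BP1 at these genes were also near those of the list at S5p regions of similar strength. On S5p regions with a fold of at least 29.0, the 9 member 53BP1 regions had a median fold of 7.18, and the 6210 of the list a median of 7.25 (quartiles 5.24 and 9.77). Of the 9, 5 lay below the list's median. The 9 include the second 53BP1 region of DSP, past the gene end. The S5p regions themselves had a median fold of 54.9 in the windows, against 43.6 in the list at that limit. Widths of the 53BP1 regions there had a median of 564 bp in the windows, against 674 bp in the list.

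**Figure D3:**
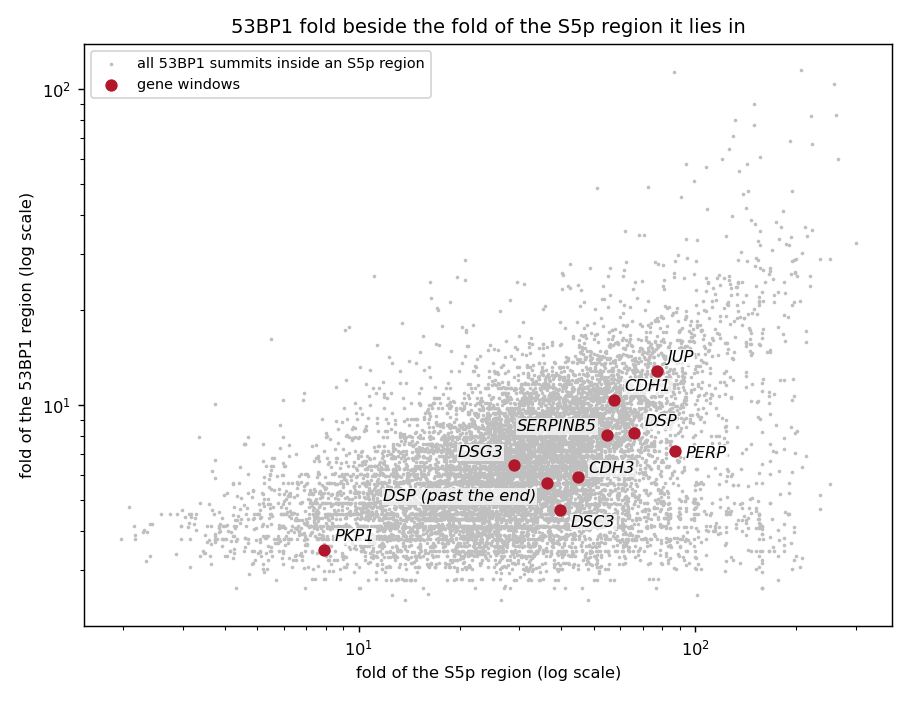
Fold of each 53BP1 region (vertical axis, log scale) against the fold of the S5p region in which its summit lies (horizontal axis, log scale), for the whole 53BP1 list (grey) and the 10 regions of the gene windows (red). The member points lie inside the grey cloud; JUP is highest in 53BP1 fold at 12.8, and PKP1 is the lowest of the 10 in both folds.

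The 53BP1 summits lay close to the S5p summits and at varied distances from the S2p summits. All 10 were within 200 bp of the summit of their S5p region, with a median of 31.5 bp and a range of 1 to 168 bp, against 69.5% of the list within 200 bp and a list median of 78 bp. The 10 include the second 53BP1 region of DSP, past the gene end. Of the 10, 9 lay on S5p regions with a fold of at least 29.0, while the list values were not limited by S5p fold. Whether the distances differ at S5p regions of similar strength was not tested. In JUP the distance was 1 bp in an S5p region of 41.7 kb, and in SERPINB5 7 bp in one of 32.8 kb. Of the 9 summits that lay in an S2p region, 4 were within 200 bp of its summit, against 52.5% of the list. The S2p distance was 3 bp in JUP, where a separate S2p region covered the start, and 29074 bp in SERPINB5, where 1 region covered start and end.

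S5p was strongest at the start of the genes and S2p past their end. In the 8 genes other than PKP1 the summit of the strongest S5p region lay 7 to 1109 bp after the start (median 81 bp), within 200 bp in 7 of the 8, CDH3 with its unchecked start being the other. The summit of the strongest S2p region lay past the gene end in 8 of 8, by 837 to 4394 bp (median 3826.5 bp). In DSC3 that region lay wholly past the end. Only regions that met the window, which ended 5 kb past the gene, were compared. No share over all genes stands beside these counts or those by segment below, since no hg19 annotation was at hand. S2p regions over the start existed in the same 8 genes. In SERPINB5 that region was also the strongest, since it ran through the gene, and in the other 7 the strongest S2p fold was 1.34 (CDH1) to 6.18 (DSP) times that over the start. The strongest S2p region reached past the gene end in all 8 genes, furthest in CDH3 (21.2 kb), JUP (13.6 kb) and DSG3 (12.0 kb). Signal of a neighbouring gene therefore cannot be told apart in these ratios, those of DSP and CDH1 included.

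Coverage along the genes showed where each form lay. Each span was divided into 3 equal parts. Within 1 kb of the start, S5p covered more in 6 of the 8 genes and S2p in 2, CDH3 (S2p 90.5%, S5p 81.0%) and CDH1 (S2p 90.4%, S5p 70.7%). In the 5 kb before the start S5p covered more in 7 and S2p in 1, CDH1. Over the 8 genes, the first part was covered more by S5p in 6 and equally in 2. The middle part was covered more by S2p in 5 and equally in 3, and the 5 kb after the gene end more by S2p in 6 and equally in 2. The last part was mixed, with S2p ahead in 3, S5p in 2 and no difference in 3. S2p covered 86.3 to 100% of the 5 kb after the end (median 100%), while S5p covered 27.3 to 100% (median 80.8%). The lowest S5p share after the end was that of DSC3, with 27.3% by S5p and 86.3% by S2p, while CDH1 had S2p ahead around the start and S5p ahead over the first part as a whole, with 30.6% covered by S2p and 84.1% by S5p. JUP, CDH3 and SERPINB5 were covered by S5p from start to end. Covered shares depend on each library's depth, which was unknown, so a larger share in one list than in the other does not measure more polymerase.

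**Figure D4:**
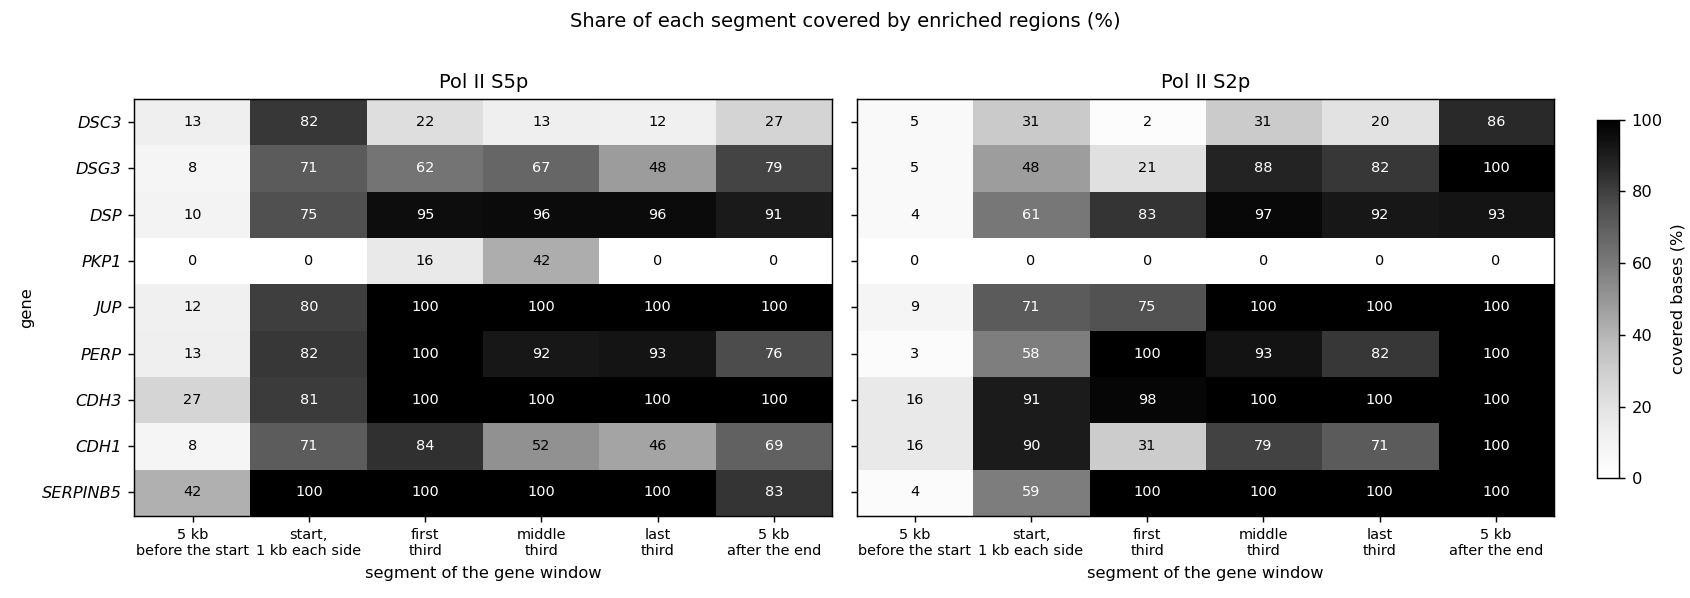
Share of bases (%, printed in each cell and shaded from white at 0 to black at 100) covered by S5p regions (left) and S2p regions (right), for each gene (rows) and each segment of its window (columns, in the direction of transcription). S2p is at 86.3% or more in the 5 kb after the end of the 8 genes other than PKP1, and all PKP1 cells are at 0 in S2p.

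Region by region, both Pol II lists overlapped each other often in these windows. Of the 71 S5p regions, 59 overlapped S2p (83.1%, interval 72.3 to 91.0%), against 60.2% of the list, and of the 49 S2p regions, 39 overlapped S5p (79.6%, interval 65.7 to 89.8%), against 54.9% of the list. CDH1 alone supplied 35 of these S5p and 19 of these S2p regions. The intervals take such regions of 1 gene as independent, so whether the windows exceed the lists was not tested. All 4 S5p regions of PKP1 were among those without S2p. At S5p folds of 29.0 or more the share was 9 of 9, against 97.9% of the list. Of the S2p regions, 10 of 49 overlapped 53BP1 (20.4%, interval 10.2 to 34.3%), against 13.9% of the list. Of these 10, the CDH1 region of largest S2p fold, met only a 53BP1 region outside the windows, at 68877272 to 68877817 (fold 9.23), and without it the count was 9 of 49 (18.4%). Member S5p and S2p regions were wider than those of their lists: the median was 1444 bp against 970.0 bp for S5p and 2745 bp against 1098 bp for S2p. Member 53BP1 regions were not, with a median of 517.5 bp against 561 bp. Regions were taken by overlap with a window, which favours wide ones, and whether the widths differ was not tested. The median fold was 3.60 against 3.76 for S5p and 4.21 against 3.58 for S2p.

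**Figure D5:**
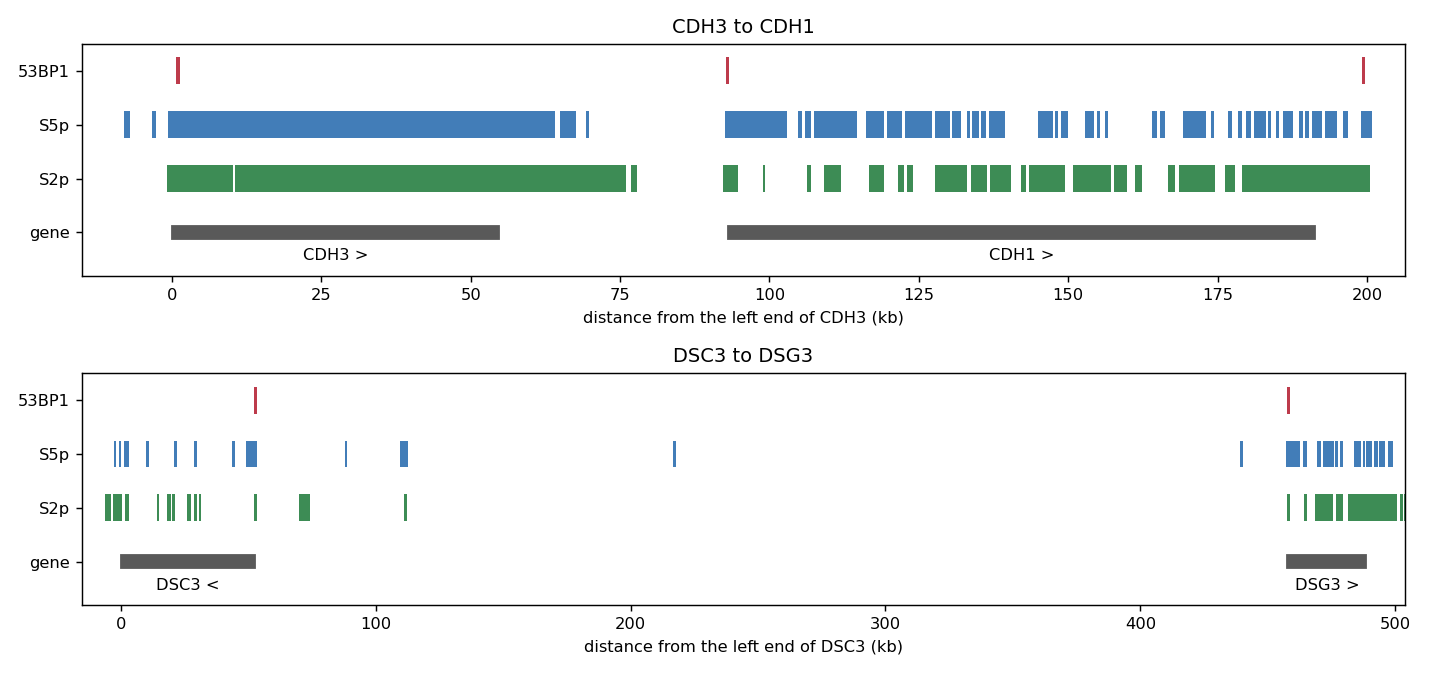
Regions of the 3 lists (53BP1 red, S5p blue, S2p green) and the gene spans (grey, arrowheads give the direction of transcription) from CDH3 to CDH1 (top) and from DSC3 to DSG3 (bottom), with distance from the left end of the first gene in kb on the horizontal axis. S2p runs 21.2 kb past CDH3 towards CDH1, and between DSC3 and DSG3 no 53BP1 region lies apart from those at their starts.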

How the data were processed

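MCF10A chromatin was crosslinked with formaldehyde and sonicated to fragments of 250 to 500 bp, per the labels' protocols, which bounds the resolution of summits. The authors deposited 1 list of enriched regions for each of 53BP1, S5p and S2p. Per the submitters' processing notes, reads were written from base calls by bcl2fastq 2.20.0.422, and positions are in hg19. Not given in the sources used here were the aligner, the peak caller with its control, and any pooling of reads. Each deposited region has a signal value, read here as a fold over background, a −log10 p-value, a −log10 q-value and a summit offset. The deposited score is 10 times the −log10 q-value and was not used further. Folds rank regions within a list and do not compare lists.

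Rows outside the autosomes and chromosome X were dropped, and positions were made 1-based. Gene spans in hg19 came from the definition of the gene group; strands were taken from general knowledge and equalled those of RefSeq for the 7 genes in its promoter table. Percentiles are ranks of fold within a list. Overlap means at least 1 bp, and shares have exact Clopper-Pearson 95% intervals. All 9 genes are named, with every 53BP1 region and the S5p and S2p region of largest fold in each window. No test was made, since each ChIP had 1 library. No hg19 annotation was at hand, so other junction genes were not counted. The genes and measures were chosen with earlier results of these data known. The overlap functions were tested on simulated data. Scripts used matplotlib 3.10.9, scipy 1.17.1, pandas 2.3.3 and numpy 2.4.6 in Python 3.11.15.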

Additional observations from a re-analysis of the deposited data

How the results depend on the processing

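Of 47 alternative values, 35 stayed within 1.5 times of a count or within the interval of a share. For covered span the interval took each base as independent and was very narrow. All alternative values of covered span therefore fell outside it, and the tally does not measure how stable they are. The flank of 0 or 10 kb and the rule that the summit must lie in the window changed none beyond those limits; with 10 kb, 53BP1 regions numbered 11, and with no flank the second 53BP1 region of DSP was left out. With the −log10 q-value limited to at least 5, S5p regions numbered 41, S5p regions with S2p came to 68.3%, 53BP1 regions with S2p to 100%, and covered span to 60.3% for S5p and 58.3% for S2p, because weak regions were left out; 53BP1 was then listed at 7 genes, without DSC3 and PKP1. Asking for 50% of a region to be covered gave 0% and 2.04% of S5p and S2p regions with 53BP1, since 53BP1 regions are narrow, and 70.4% of S5p regions with S2p. Windows of 250 bp on each side of the summit covered 6.15% (S5p) and 4.42% (S2p) of the spans by construction. Chosen after seeing the data were the share of S5p regions with 53BP1 without CDH1, 25%, and at a fold of at least that of the weakest start region, 100%. Ranked within regions of like width, the S5p percentile was lower in 9 of 9 genes, down to 69.5, and the S2p percentile in 7 of 8, down to 47.2; the 53BP1 percentile was higher in 5 and lower in 4, by up to 19.9 and 17.5 points, and that of PKP1 was 18.2 (14.9 by −log10 q-value). No paired analysis was possible because every group is a single library. Unknown depth bounds every statement that a region was not detected.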

Other observations

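The space between the neighbouring classical cadherin genes, CDH3 and CDH1, held few regions apart from those that reached in from these genes. Between CDH3 and CDH1 (chromosome 16, 68732958 to 68771194, 38.2 kb), S2p covered 60.2% and S5p 33.8% of the bases. Most of this was the S2p region that ran on from CDH3 and the S5p region that ended 9.22 kb past it. The regions wholly inside were S5p regions at 68743041 to 68745814 (fold 5.26) and 68747425 to 68747918 (fold 3.16) and an S2p region at 68754978 to 68755945 (fold 2.60), and none of them held 53BP1.

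Between DSC3 and DSG3 (chromosome 18, 28622782 to 29027731, 405 kb), the GRCh38 table lists 4 protein-coding genes, the desmosomal cadherin genes DSC2, DSC1, DSG1 and DSG4. S5p covered 1.53% and S2p 1.38% of this interval. The strongest S5p region wholly inside was at 28679542 to 28682699, with a fold of 23.2 (89.8th percentile); it met an S2p region of fold 4.69 and held no 53BP1 region. The other S5p regions inside were at 28657958 (fold 2.95), 28786856 (fold 7.70) and 29009303 (fold 6.68), none with S2p or 53BP1. The widest S2p region wholly inside, 4.37 kb at 28640075 to 28644439, had a fold of 4.87 and met neither S5p nor 53BP1. These regions were not assigned to genes, since no hg19 annotation was at hand.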
